A study of Mus musculus with 7 samples.

Results

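The genes described here encode the factors that start and drive protein synthesis and the enzymes that charge transfer RNAs with amino acids. They were taken from the authors' deposited table of 1 comparison by gene symbol. The symbols begin with Eif1 to Eif6, Eef1 or Eef2, leaving out Eif2ak2, or name a cytosolic or mitochondrial aminoacyl-tRNA synthetase, as Aars, Iars2 and Eprs do. The table holds 19 such genes among its 3389 lines. GENCODE M21 annotates 102 protein-coding genes that meet the same rule, so 83 of them are not in the table. Cells were neural stem cells grown from the mouse subventricular zone in medium with EGF and FGF-2. The shKAP1 group holds 4 samples and the control group 3, and the labels give no strain, age, time after nucleofection or content of the control nucleofection. KAP1 is the protein of Trim28, a corepressor brought to DNA by KRAB zinc finger proteins, and the short hairpin RNA against it was introduced by nucleofection of cultured cells, which reduces rather than deletes it.

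Each line of the table gives a mean normalized count over samples, a log2 fold change and the standard error of that change (SE), and the DESeq2 p before and after Benjamini-Hochberg adjustment. Genes called listed below have an adjusted p under 0.05, because no other gene is in the table. A gene that is not listed either missed that threshold or received no adjusted p, so it is not shown to be unchanged. The table has no column per sample, so values of single samples, their overlap between groups and their depth cannot be given, and the SE stands for the replicate error. The labels do not tell separate cultures or animals apart, and p-values therefore reflect the spread among these samples, which may be technical. The numerator is not named either. Since the authors' deposited table gives Trim28, the targeted gene, a log2 value of -1.17 (SE 0.05), a minus sign was taken to mean lower after knockdown. Of 12 neural stem cell markers, 5 were listed and higher, including Vim, Fabp7 and Slc1a3, and 7 were not listed, Sox2 and Gfap among them. The share higher of these markers is 41.7%, against 12.6% over all tested genes. The markers were chosen with earlier results of these data known, and the share was not tested. None of 10 microglia or 6 endothelial markers was listed, against 26.3% of all tested genes. Of 8 mature neuron markers the authors' deposited table lists Map2, at -0.11 (SE 0.04), and a change in cell composition was not tested. In bulk RNA fewer cells of a type and less RNA per cell cannot be told apart.

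Translation begins when initiation factors (eIFs) place the small ribosomal subunit, with an initiator transfer RNA, at a start codon. The eIF4F complex of the cap-binding protein eIF4E, the scaffold eIF4G and the helicase eIF4A brings the messenger RNA, eIF1 and eIF1A govern scanning, and eIF2, recharged by eIF2B, carries the initiator. Elongation factors then deliver charged transfer RNAs (eEF1) and move the ribosome along (eEF2), while the synthetases supply the charged transfer RNAs. Stress kinases that phosphorylate eIF2 and the mTOR kinase, which acts on eIF4E-binding proteins, are the textbook controls of the rate of initiation in stem cells and neurons.

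Roles were assigned by gene symbol. Among the listed genes, 9 of 10 initiation factors were lower in shKAP1, the 3 elongation factors were higher, and cytosolic synthetases were 2 higher and 2 lower. The initiation factors so counted include Eif5a2 and Eif5a, described below as acting on moving ribosomes, and Eif4a3, Eif1ad and Eif6. Of the 102 genes, 7 were higher and 12 lower, which is 6.86% and 11.8% of them. Over all 12905 genes that received an adjusted p, 26.3% were listed, 12.6% as higher and 13.7% as lower, so the 18.6% of this family that is listed is a smaller share than the background. The denominators differ, since how many of the 102 received an adjusted p is unknown. The changes were small. The median listed member differed by 1.13-fold, against 1.22-fold for all listed genes, and its mean normalized count was 10103 against 2885. A gene with a larger SE needs a larger change to be listed. The median SE was 0.049 for members and 0.071 for all listed genes, so the median folds were not compared at equal precision. The largest listed adjusted p of a member was 0.0285, for Yars.

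**Figure D1:**
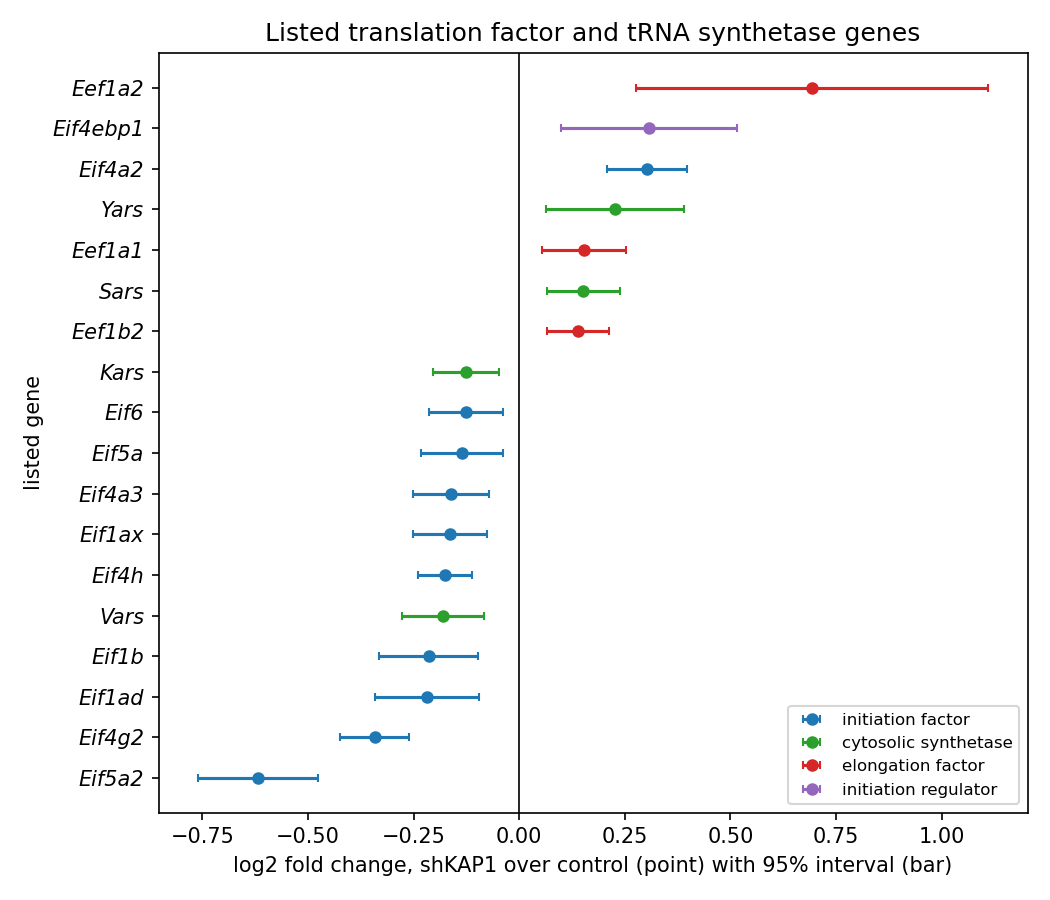
Log2 fold change of shKAP1 over control (x axis) for 18 of the 19 listed genes (y axis), leaving out mitochondrial synthetases, coloured by role, with 95% intervals from the deposited SE as bars. Values run from -0.62 for Eif5a2 to 0.69 for Eef1a2, and the others shown lie between -0.34 and 0.31.

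Of 47 genes grouped by symbol as initiation factors, 9 were lower, 1 was higher and 37 were not listed. The 10 listed had a median log2 change of -0.17, and this group holds the 2 lower genes of smallest adjusted p, Eif5a2 and Eif4g2. As a share of its genes 19.1% were lower, above the background of 13.7%, and 2.13% were higher, below the background of 12.6%. The 9 lower include Eif5a2, Eif5a, Eif4a3, Eif1ad and Eif6, so the lower share rests on grouping by symbol. Whether it would stay above the background without them was not counted. No test was made of these shares.

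**Figure D2:**
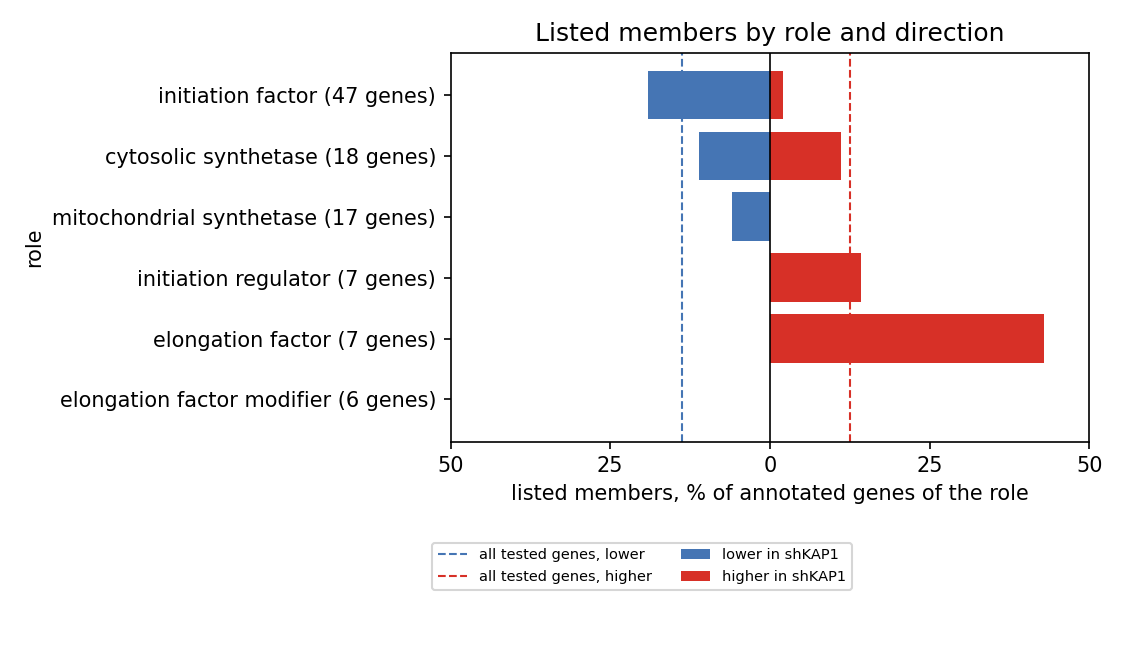
Share of the annotated genes of each role (y axis) that were listed as lower (left of 0) or higher (right of 0), in percent (x axis). Dashed lines mark the shares over all tested genes, 13.7% lower and 12.6% higher, and elongation factors reach 42.9% higher on 7 genes. Roles follow gene symbols.

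Eif5a2 gave the strongest result of the family. It encodes the second form of eIF5A, a factor that carries the modified residue hypusine and keeps ribosomes moving where peptide bonds form slowly. Eif5a2 (ENSMUSG00000050192.8, chr3:28781276-28798846, plus strand, GRCm38) had a mean normalized count of 2076 and stood at -0.62 on the log2 scale (DESeq2 adjusted p = 3.22e-15, SE 0.07) in the authors' deposited table. This is a fall of 1.53-fold (95% interval 1.39 to 1.69), and the gene stands 75th by p among all listed genes and 45th among those lower. Its paralog Eif5a, the widely expressed form, was at -0.14 (DESeq2 adjusted p = 0.0258, SE 0.05) in the authors' deposited table. The interval of Eif5a, -0.23 to -0.04 on the log2 scale, does not overlap that of Eif5a2, -0.76 to -0.48, but the difference itself was not tested, since the table gives no values per sample. Per kilobase of the longest coding transcript, the level of Eif5a was 30040 normalized counts and that of Eif5a2 413. None of the 9 genes that attach hypusine to eIF5A or diphthamide to eEF2, such as Dhps and Dohh, was listed. The share listed over all tested genes is 26.3%, and no test was made on so few genes.

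The first 60 coding bases of the paralog pairs are shown from GENCODE M21, because they encode related proteins whose reads must be told apart. Both genes are listed in 2 of the pairs and 1 gene in the other 2, and no difference within a pair was tested. Capitals mark bases that differ within a pair.
Eif5a: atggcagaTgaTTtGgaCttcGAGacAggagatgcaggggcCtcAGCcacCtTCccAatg
Eif5a2: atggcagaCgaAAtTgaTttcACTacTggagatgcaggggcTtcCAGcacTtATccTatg
Eif4a1: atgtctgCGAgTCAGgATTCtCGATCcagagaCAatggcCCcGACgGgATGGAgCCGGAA
Eif4a2: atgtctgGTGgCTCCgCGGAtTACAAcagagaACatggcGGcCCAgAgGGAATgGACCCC
Eef1a1: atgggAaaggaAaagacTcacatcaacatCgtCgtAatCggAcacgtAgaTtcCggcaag
Eef1a2: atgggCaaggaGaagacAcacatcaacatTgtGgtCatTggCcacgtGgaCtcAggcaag
Eif1: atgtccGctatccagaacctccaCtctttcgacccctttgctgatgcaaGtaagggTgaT
Eif1b: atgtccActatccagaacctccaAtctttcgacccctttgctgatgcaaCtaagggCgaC
Within these windows the Eif5a pair differs at 17 bases, the Eif4a pair at 35, the Eef1a pair at 11 and the Eif1 pair at 5. Over whole coding sequences identity was 72.3% for Eif5a and Eif5a2, 77.5% for Eif4a1 and Eif4a2, 80.0% for Eef1a1 and Eef1a2 and 81.3% for Eif1 and Eif1b. No stretch of 31 bases is shared by the coding sequences of any of the 4 pairs.

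Of the 3 eIF4G genes 1 was lower, and none of the 4 eIF4E genes was listed. Over all tested genes 13.7% were lower and 26.3% were listed in either direction, and these groups are too small to compare. Eif4g2 encodes a relative of eIF4G that lacks the eIF4E-binding part and serves cap-independent initiation. Eif4g2 (ENSMUSG00000005610.17, chr7:111067750-111083030, minus strand) was lower at -0.34 (DESeq2 adjusted p = 4.90e-14, SE 0.04) in the authors' deposited table, a fall of 1.27-fold and a log2 interval of -0.42 to -0.26. With a mean normalized count of 90975 it ranks 22nd by count among listed genes, so this was a small change in an abundant transcript. The scaffold genes proper, Eif4g1 and Eif4g3, were not listed, nor were Eif4e, Eif4e2, Eif4e3 and Eif4e1b.

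The helicase genes moved in different directions. Eif4a2 (ENSMUSG00000022884.16, chr16:23107444-23114136, plus strand), a paralog of the main helicase gene Eif4a1, rose by 0.30 log2 units in the authors' deposited table (DESeq2 adjusted p = 1.51e-08, SE 0.05), the smallest adjusted p among the higher members. This is 1.23-fold, with an interval of 1.15 to 1.32, at a mean normalized count of 14343. Eif4a1 was not listed. Eif4a3, whose protein is the RNA clamp of the exon junction complex rather than an eIF4F subunit, was lower at -0.16 (DESeq2 adjusted p = 0.00313, SE 0.05) in the authors' deposited table. Eif4h (chr5:134619721-134639490, minus strand), which stimulates the helicase, fell by 0.18 log2 units in the authors' deposited table (DESeq2 adjusted p = 1.20e-06, SE 0.03), a 1.13-fold change (interval 1.08 to 1.18) at a count of 24272. Its SE is the smallest of the 19. Eif4b, which shares the role of Eif4h, was not listed.

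Of the 5 genes with eIF1 and eIF1A names, 3 were lower and 2, Eif1 and Eif1a, were not listed. The background is 13.7% lower, and no test was made on so few genes. The authors' deposited table gives Eif1ax, the X-linked gene of the scanning factor eIF1A, at -0.16 (DESeq2 adjusted p = 0.00189, SE 0.04), with a mean normalized count of 11948 and a fold of 1.12 (interval 1.05 to 1.19). Eif1ax lies at chrX:159372178-159389928 on the plus strand. Relative to the median of listed genes of similar GC content, -0.17, its value was 0.0107. That median holds only genes past the threshold, so the value places Eif1ax among them and does not turn its direction. Eif1b, a close copy of the start codon selection factor gene Eif1, stood at -0.21 (DESeq2 adjusted p = 0.00272, SE 0.06) in the authors' deposited table. The third, Eif1ad, encodes a protein with an eIF1A-like domain and was at -0.22 (DESeq2 adjusted p = 0.00338, SE 0.06) in the authors' deposited table. The values of the 3 lie within 0.06 of each other, less than the SE of Eif1b or Eif1ad.

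Eif6, whose product keeps the large ribosomal subunit apart from the small one, was at -0.13 (DESeq2 adjusted p = 0.0225, SE 0.04) in the authors' deposited table. The large multi-subunit factors are absent from the table. None of the 14 eIF3 genes was listed, and neither was any of the 4 genes of eIF2 subunits, the 5 of eIF2B, Eif2a, Eif2d, Eif5 or Eif5b. Over all tested genes 26.3% were listed, and how many of these genes received an adjusted p is unknown. No test was made on such small groups. The 14 eIF3 genes include Eif3a, Eif3b and Eif3c of the core and Eif3j1 and Eif3j2.

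Among 7 genes for regulators of initiation, Eif4ebp1 was higher and 6 were not listed. The share of 14.3% is near the background of 12.6%. Its protein, 4E-BP1, binds eIF4E and blocks cap-dependent initiation until mTOR phosphorylates it. Eif4ebp1 (ENSMUSG00000031490.6, chr8:27260329-27276674, plus strand) stood at 0.31 (DESeq2 adjusted p = 0.0181, SE 0.11) in the authors' deposited table, at a count of 2209. The fold of 1.24 has a wide interval of 1.07 to 1.43. Not listed were Eif4ebp2 and Eif4ebp3, the eIF4E transporter gene Eif4enif1 and the eIF2 kinase genes Eif2ak1, Eif2ak3 and Eif2ak4.

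Elongation factors here are genes with Eef1 or Eef2 names, modifying enzymes apart, so the eIF5A genes, both lower, are not among them. The Eef genes were higher where listed, with 3 of 7 higher, none lower and 4 not listed. The share higher is 42.9%, against a background of 12.6%, on 7 genes and with no test made. All 3 belong to eEF1. The authors' deposited table gives Eef1a1 (ENSMUSG00000037742.14, chr9:78478449-78489151, minus strand), the main gene of the factor that delivers charged transfer RNA, a mean normalized count of 414415. This is the second highest count among all 3389 listed genes. On the log2 scale it stood at 0.15 (DESeq2 adjusted p = 0.0138, SE 0.05) in the authors' deposited table, which is 1.11-fold with an interval of 1.04 to 1.19. Eef1a2 (ENSMUSG00000016349.10, chr2:181147653-181157014, minus strand), the form that replaces Eef1a1 in mature neurons and muscle, was the highest member at 0.69 (DESeq2 adjusted p = 0.00691, SE 0.21) in the authors' deposited table. Its fold was 1.62 with an interval of 1.21 to 2.16, and its count of 299 is the lowest of the 19 members and its SE the largest. Per kilobase the level of Eef1a1 was 231001 normalized counts and that of Eef1a2 143, so the gene with the larger fold contributes little of the total eEF1A message.

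Eef1b2 (ENSMUSG00000025967.16, chr1:63176825-63180486, plus strand), a subunit of the exchange factor that recharges eEF1A, rose by 0.14 log2 units in the authors' deposited table (DESeq2 adjusted p = 0.00146, SE 0.04). This is a 1.10-fold change (interval 1.05 to 1.16) at a count of 15562. The partner subunits Eef1d and Eef1g, Eef1e1 and the translocation factor gene Eef2 were not listed. None of the 6 genes for enzymes that modify elongation factors was listed, namely Eef1akmt1, Eef1akmt2, Eef1akmt3, Eef1akmt4, Eef2kmt and the eEF2 kinase gene Eef2k. The share listed over all tested genes is 26.3%, and no test was made on so few genes.

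**Figure D3:**
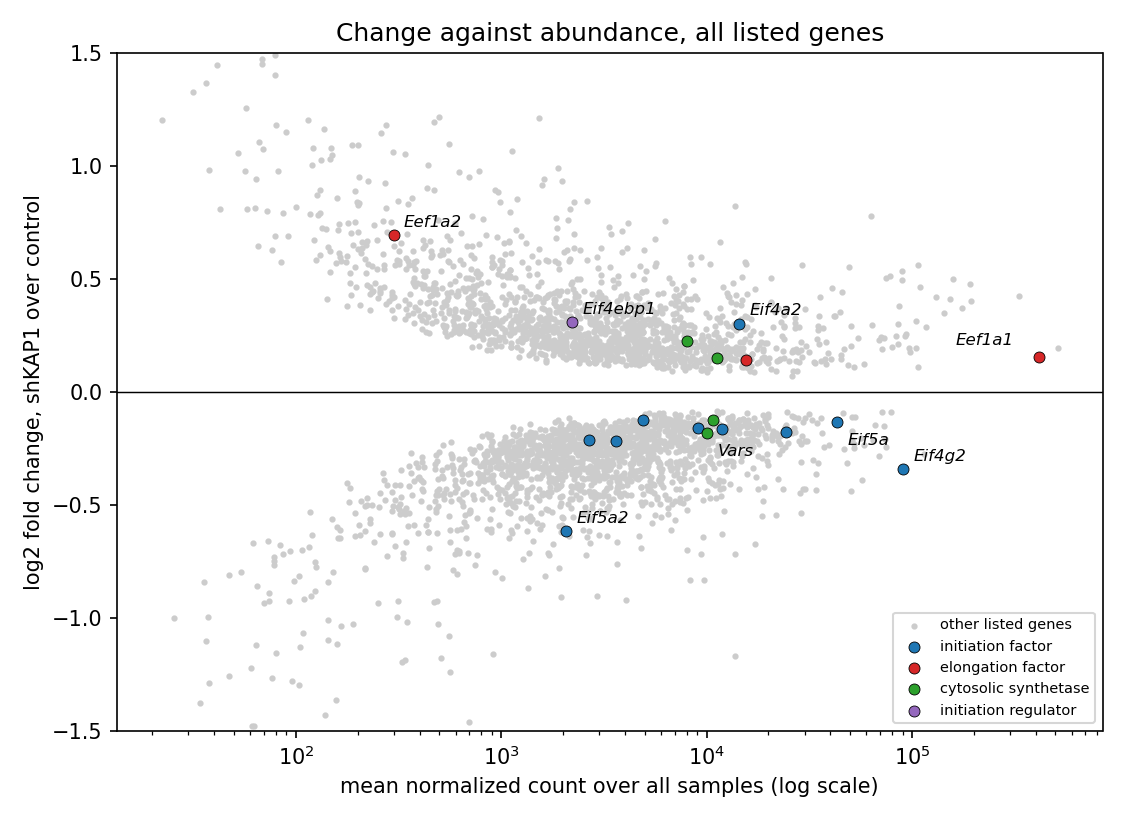
Log2 fold change (y axis) against mean normalized count over all samples (x axis, log scale) for the listed genes, with members other than mitochondrial synthetases coloured by role and 16 genes beyond 1.5 on the y axis left out. Most members lie to the right, at high counts and small changes, whereas Eef1a2 stands at a count of 299 and Eif5a2 at 2076.

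Of 18 cytosolic synthetase genes, 2 were higher, 2 lower and 14 not listed. The shares of 11.1% higher and 11.1% lower are near the backgrounds of 12.6% and 13.7%. Sars, the seryl-tRNA synthetase gene (chr3:108424865-108445209, minus strand), was higher at 0.15 (DESeq2 adjusted p = 0.00400, SE 0.04) in the authors' deposited table, a fold of 1.11 (interval 1.05 to 1.18) at a count of 11256. Relative to the median of listed genes of similar GC content, 0.17, its value was -0.0226. That median holds only genes past the threshold, so the value places Sars among them and does not turn its direction. Yars, for tyrosine, was at 0.23 (DESeq2 adjusted p = 0.0285, SE 0.08) in the authors' deposited table. On the lower side Vars, for valine (chr17:35000987-35016322, plus strand), was at -0.18 (DESeq2 adjusted p = 0.00222, SE 0.05) in the authors' deposited table, a fold of 1.13 (interval 1.06 to 1.21) at a count of 10103. Kars, for lysine, was at -0.13 (DESeq2 adjusted p = 0.0101, SE 0.04) in the authors' deposited table and has the smallest change of the 19 members. The 4 enzymes fall on both sides within a narrow range, and the 14 not listed are Aars, Cars, Dars, Eprs, Gars, Hars, Iars, Lars, Mars, Nars, Qars, Rars, Tars and Wars.

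Of 17 mitochondrial synthetase genes, 1 was lower and 16 were not listed. These enzymes charge the transfer RNAs used inside mitochondria and are encoded in the nucleus. The share lower, 5.88%, is under the background of 13.7%, and no test was made of it.

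Related gene lists are given as counts of their annotated genes, to be read against the 12.6% higher and 13.7% lower over all tested genes, and no list was tested. Of 19 cap and termination partners, 2 were lower, the release factor gene Gspt1 at -0.12 (SE 0.05) and Pabpc4 at -0.10 (SE 0.04) in the authors' deposited table. Of 16 mitochondrial translation factors, 2 were higher, Taco1 at 0.16 (SE 0.06) and the elongation factor gene Tufm at 0.12 (SE 0.05) in the authors' deposited table. Of 12 synthetase partners and related genes outside the rule, which include Farsa, Farsb, Aimp1 and Aimp2, the selenocysteine elongation factor gene Eefsec was lower at -0.31 (DESeq2 adjusted p = 1.94e-04, SE 0.07) in the authors' deposited table and 11 were not listed. Transfer RNA modification genes split into 2 higher and 4 lower of 36, with Trmt1 at 0.33 (SE 0.09) and Qtrt2 at -0.33 (SE 0.09) in the authors' deposited table. In the mTOR pathway 2 of 26 genes were higher, Lamtor1 at 0.13 (SE 0.04) and Tsc2, which restrains mTOR, at 0.22 (SE 0.08) in the authors' deposited table.

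Of 30 genes of the integrated stress response and targets of its transcription factor ATF4, 11 were higher and 2 lower, and the listed ones had a median log2 change of 0.50. In shares these are 36.7% and 6.67%, against backgrounds of 12.6% and 13.7%. This list was chosen with earlier results of these data known, so the shares are a description and were not tested. Sesn2, with the smallest adjusted p of the list, was at 0.51 (SE 0.05) in the authors' deposited table. Slc7a11, a cystine transporter, was at 0.99 (SE 0.12), the transcription factor gene Atf5 at 0.50 (SE 0.05) and Chac1, which degrades glutathione, at 0.82 (SE 0.17) in the authors' deposited table. The 2 lower genes were Ppp1r15b at -0.15 (SE 0.04) and Vldlr at -0.24 (SE 0.09) in the authors' deposited table. Several cytosolic synthetase genes and Eif4ebp1 are known as ATF4 targets from work on other cells. Sars, Yars and Eif4ebp1 were higher as given above, and Vars and Kars were lower, whereas Aars, Gars, Tars, Wars and Nars were not listed. Atf4 itself, Asns, Psat1 and Trib3 were not listed either.

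Base composition varied with direction across the table, and the values for members are given here beside it. When listed genes were ordered by median transcript GC content and cut into deciles, 20.9% of the lowest decile were higher, and 77.0% of the highest. Eif5a2, at 38.8% GC, lies in the lowest decile, whose median log2 fold change is -0.22, and Eif4g2, at 43.2%, in the next, with a median of -0.21. Eif4a2 is also in the lowest decile at 41.7% and was higher, against the direction of most genes there. Eef1a2, at 60.6%, is in the highest decile, whose median is 0.27. Eef1a1, Eef1b2, Yars and Eif4ebp1 were also higher although their deciles had negative medians. Vars, Eif1ad, Eif6, Eif5a, Eif4h, Eif4a3 and Eif1b were lower although their deciles had positive medians. The median GC content was 51.4% for higher and 53.0% for lower members, against 53.2% and 48.1% for all listed genes. The part of base composition in these results was not tested.

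**Figure D4:**
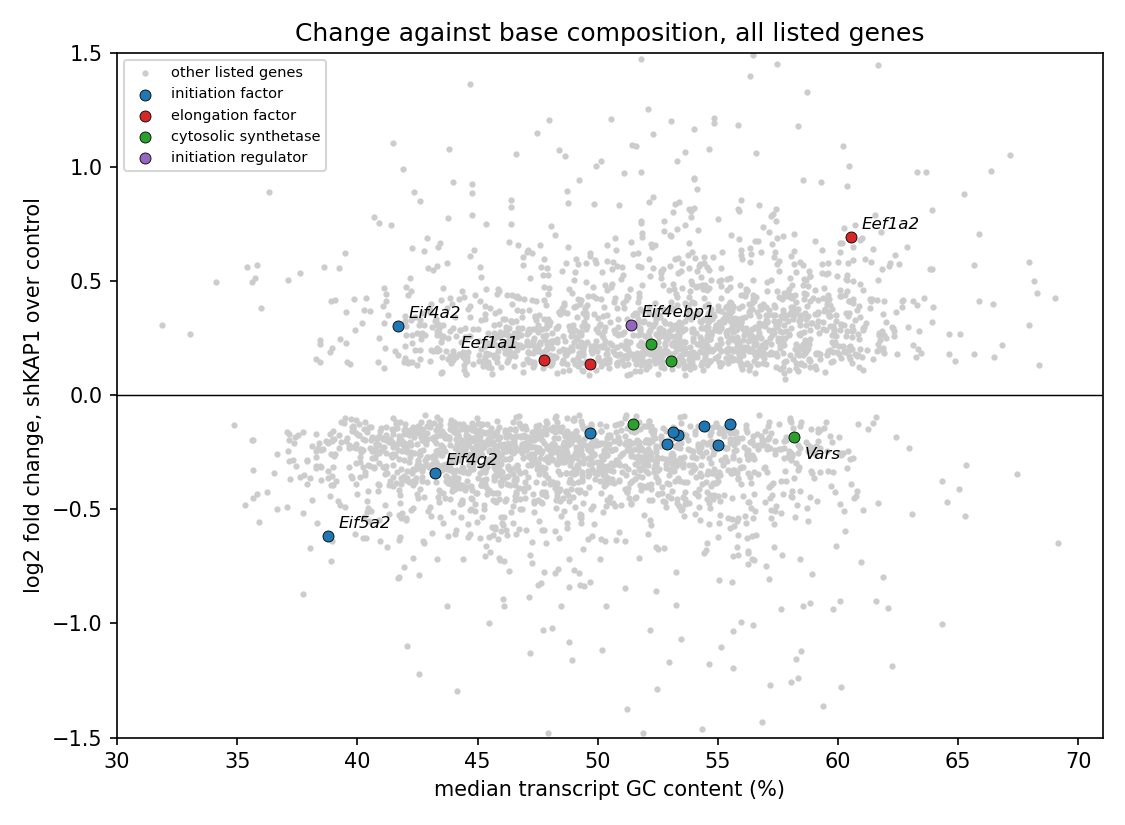
Log2 fold change (y axis) against median transcript GC content in percent (x axis) for the listed genes, with members other than mitochondrial synthetases coloured by role and 16 genes beyond 1.5 on the y axis left out. Eif5a2 at 38.8% and Eif4a2 at 41.7% lie at low GC on opposite sides of 0, and Eef1a2 lies at 60.6%.

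Shared sequence limits how well reads can be assigned for a few members. Of the 31-base stretches in coding transcripts of Eef1a1, 64.0% also occur in transcripts of 27 other genes, 22 of them pseudogenes. For Eif4a3 the share was 44.0%, mostly with the gene model Gm5580, and for Eif4a2 13.8% and Eef1b2 11.0%. None of the genes that share stretches with Eef1a1, Eif4a2 or Eif4a3 was listed, whereas for Eef1b2 19 of 121 were. The values of these members are therefore uncertain where the authors' counting split reads, whereas Eif5a2 shared 0.14% and Eef1a2, Sars and Yars none. Of the 19 members 8 overlap an annotated gene on the opposite strand, and for 2 of them that gene is listed, Rfc4 for Eif4a2 and Banf1 for Eif1ad. Rfc4 was at -0.30 (SE 0.08), opposite in sign to Eif4a2, and Banf1 at -0.15 (SE 0.04) in the authors' deposited table. The libraries keep strand, per the labels' protocols, but the sources used here do not say whether the counting used it.

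The 250 bases before the start site are shown for the lower member of smallest p, the higher member of smallest p and the member with the largest rise. They come from RefSeq on GRCm38.p6, and capitals mark matches to the E-box CACGTG, a palindrome bound by Myc, Max and related factors.
Eif5a2 (chr3:28781027-28781276, plus strand): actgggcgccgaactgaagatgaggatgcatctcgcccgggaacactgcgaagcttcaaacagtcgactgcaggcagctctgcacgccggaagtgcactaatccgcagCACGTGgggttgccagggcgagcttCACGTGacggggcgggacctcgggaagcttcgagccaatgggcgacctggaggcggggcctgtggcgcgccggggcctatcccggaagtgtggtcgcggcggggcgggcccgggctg
Eif4a2 (chr16:23107218-23107467, plus strand): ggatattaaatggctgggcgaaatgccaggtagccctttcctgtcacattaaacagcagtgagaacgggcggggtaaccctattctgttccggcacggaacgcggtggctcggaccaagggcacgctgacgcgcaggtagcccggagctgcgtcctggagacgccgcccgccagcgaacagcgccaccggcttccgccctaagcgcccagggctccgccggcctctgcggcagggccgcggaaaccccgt
Eef1a2 (chr2:181157016-181157265, minus strand): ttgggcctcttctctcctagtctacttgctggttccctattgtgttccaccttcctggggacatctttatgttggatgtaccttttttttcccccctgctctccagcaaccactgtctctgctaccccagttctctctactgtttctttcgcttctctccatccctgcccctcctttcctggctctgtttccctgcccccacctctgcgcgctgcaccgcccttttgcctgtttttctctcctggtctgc
Promoters were matched for 14 of the 19 listed members. Eif5a2 holds CACGTG at 142 and 117 bases before its start, and the Eif4a2 and Eef1a2 windows hold none. The letters occur in 4 of 8 lower members matched, Eif5a2, Eif5a, Eif4h and Eif1b, in 0 of 6 higher members and in 10 of 61 members not listed. Of all 27025 genes with a window 6.86% hold it, as do 11.8% of lower and 9.53% of higher listed genes. With so few members this is a description of the letters, and no binding was measured. The ATF4 element TGATGNAA, searched on both strands like the E-box, was in none of the 14. It was in 5 of 61 members not listed, among them the synthetase genes Aars, Gars and Tars. Of all genes 3.91% hold it, as do 2.10% of lower and 2.07% of higher listed genes. TATAAA, the TATA box, was in none of the 14, against 14.3% of all genes and 7.60% of lower and 7.63% of higher listed genes. Eif5a has several start sites and any of its windows was counted.

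Fewer members passed stricter limits. Members are given as counts out of the 102 annotated genes, and backgrounds as percentages of the 12905 tested genes. No test was made of these counts. At an adjusted p under 0.01, 4 of 102 members were higher and 9 of 102 lower, against backgrounds of 8.18% and 9.51% of all tested genes. At the Bonferroni limit Eif4a2 was the single higher member and Eif5a2, Eif4g2 and Eif4h were the 3 lower ones, against 3.05% and 4.15%. By the Benjamini-Yekutieli method, which allows for dependent tests, 3 of 102 were higher and 9 of 102 lower, against 7.01% and 8.3%. A 95% interval wholly beyond 1.2-fold was reached by Eef1a2 alone on the higher side and Eif5a2 alone on the lower side, against 2.41% and 2.48%. Eif4g2 fell just short of it, with the nearer end of its log2 interval at -0.26.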

How the data were processed

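RNA of 7 mouse neural stem cell samples was sequenced, and the authors deposited 1 table of the comparison of 4 shKAP1 with 3 control samples. Trimming with Trim Galore 0.4.4, then kallisto and DESeq2 on GRCm38, is listed per the submitters' processing notes. The sources used here give no other version, no annotation and no formula. Per the file headers the deposited columns are the mean of normalized counts (a signal), the log2 fold change and its SE on the log2 scale, a signed fold (a score), the Wald statistic (a score) and the raw and adjusted p-value. Nothing was refitted. A fit to counts had been planned only if values per sample were present. A further unnamed column, filled in few lines, was not used.

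Identifiers were matched without version to GENCODE M21 (3388 of 3389). The number of genes with an adjusted p, 12905, is adjusted p times rank divided by p, which 85.2% of lines gave within 0.01. Intervals of 95% assume normal errors. GC content is the median over transcripts of a gene, and levels per kilobase use the longest protein-coding transcript. Depth per sample is unknown, and no counting interval can be given. Code was run with Python 3.11.15, pandas 2.3.3 and Biopython 1.88, and the recovery of the number of tests was tested on simulated data. Listed members are named, with full statistics for the 6 of smallest p per direction, except 1 result that is not reported here. Members and lists were chosen with earlier results of these data known, and motifs, paralog pairs and shared-sequence checks after the values were seen. Alternatives were stricter limits, a minimum count, other symbol patterns and a comparison within GC deciles.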

Additional observations from a re-analysis of the deposited data

How the results depend on the processing

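The table lists genes past a threshold with no values per sample. Other tools, normalizations, leaving out replicates and other fits were therefore not run. No paired analysis was possible because single samples have no column. Control libraries are numbered 1, 2 and 4 and shKAP1 libraries 1 to 4, and whether equal numbers mark pairs is not known. A mean count of at least 100, and leaving out regulators or adding Farsa, Farsb and Tarsl2, kept counts of members within 1.5 times of 7 higher and 12 lower, as did matching identifiers with their version. By construction stricter limits left fewer. Higher members fell to 4 at an adjusted p under 0.01, 3 by Benjamini-Yekutieli, 1 at the Bonferroni limit and 1 beyond 1.2-fold. Lower members numbered 3 at the Bonferroni limit and 1 beyond 1.2-fold, and so did lower initiation factors, whose higher count became 0 beyond 1.2-fold. Higher elongation factors were 1 by Benjamini-Yekutieli, 0 at the Bonferroni limit and 1 beyond 1.2-fold. Cytosolic synthetases were 1 higher and 1 lower at 0.01 and by Benjamini-Yekutieli, and 0 and 0 at the Bonferroni limit and beyond 1.2-fold. The lower mitochondrial synthetase count became 0 at the Bonferroni limit and beyond 1.2-fold. The medians of the GC deciles cover only listed genes, so a sign relative to them is not a direction against control. Relative to the median of listed genes in the same GC decile, Eif1ax changed sign to 0.0107 and Sars to -0.0226, 16 members moved by more than their SE without changing sign, and 1 moved by less. The cause was not tested.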
